A study of Homo sapiens with 8 samples.

Results

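Transfer RNA (tRNA) genes are short genes that RNA polymerase III transcribes into the adaptor molecules of translation. The loci described here are the 439 genes of biotype tRNA on chromosomes 1 to 22 among 56752 genes of the RefSeq GRCh38 table on those chromosomes, each extended by 500 bp on both sides. Membership was set by annotation alone and not by any measured value. The genes are 70 to 108 bp long with a median of 73 bp. The windows of 131 loci touch the window of another tRNA gene, so neighbouring loci can share 1 peak, and merging them leaves 362 separate windows. Of the 439 loci, 253 lie on chromosomes 1 and 6 and 186 on the other autosomes.

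Most tRNA genes carry their promoter inside the transcribed sequence, as an A box near the start and a B box in the part that encodes the T arm. The factor TFIIIC binds these boxes and places TFIIIB just upstream, and TFIIIB in turn recruits RNA polymerase III. Human tRNA genes occur in many copies, often in clusters, and their transcription by RNA polymerase III is known to be lowered in mitosis. RefSeq symbols give the amino acid as 1 letter, the anticodon, a number for the sequence (isodecoder) and a number for the copy, so that TRN-GTT5-1 is an asparagine gene with anticodon GTT. TRX-CAT is the initiator methionine tRNA and TRU-TCA the selenocysteine tRNA.

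Open DNA was mapped by ATAC-seq, a method that lets the Tn5 transposase insert sequencing adapters where chromatin is accessible, in hTERT RPE-1 Plk1-/- EGFP-Plk1as cells. This is a telomerase-immortalised human retinal pigment epithelial line in which an EGFP-tagged, analog-sensitive Plk1 replaces the deleted endogenous kinase, so both groups carry the same alleles and the data come from 1 engineered line. All cells were arrested in prometaphase with 5 µM STLC, an inhibitor of the mitotic kinesin Eg5, for 16 h and collected by shake-off. Then 4 biological replicates received 0.5% DMSO and 4 received 10 µM 3MB-PP1, which inhibits the analog-sensitive Plk1, for 2 h, and 50000 cells with a mitotic index above 95% entered each reaction. There is no untreated or interphase group, so mitosis itself is not compared here.

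Each library is represented by 1 peak list, and read depth is unknown. The lists held 149172 to 197782 peaks on chromosomes 1 to 22 in the DMSO group and 169667 to 250548 in the 3MB-PP1 group. Peaks were shorter over the whole list after 3MB-PP1 (median 291 ± 24.9 bp against 390 ± 25.0 bp, SD, n = 4 libraries each). Of 6 genes of cultured RPE-1 cells (KRT8, KRT18, VIM, CDH2, ITGB1 and CAV1), 6 had a peak at a gene end in all 8 lists. Of 6 retinal pigment epithelium genes only MITF and PMEL did, and RPE65 had a peak in none. Among genes of other cell types, PTPRC and ALB had no peak in any list, whereas SNAP25 and SYT1 had one in all 8, so a peak at a gene end does not show that the gene is in use.

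The sequences of a few of these genes show what these few have in common and how far identical copies can differ in their peaks. They were read from RefSeq promoter windows (GRCh38, 300 bp each), in which 14 tRNA genes lie whole, and capitals mark the anticodon and, further on, the core of the B box (GTTCNANNC). The first 2 sequences belong to loci with a peak in all 8 lists, the next to identical copies with unlike peaks, and then come near-identical copies, a locus with a peak in 6 lists and one whose peak lengths differed between the groups.
TRT-TGT6-1, chr5:181191687-181191758, minus strand: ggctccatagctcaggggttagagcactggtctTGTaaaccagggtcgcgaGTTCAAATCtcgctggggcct
TRG-CCC2-2, chr16:636736-636806, minus strand: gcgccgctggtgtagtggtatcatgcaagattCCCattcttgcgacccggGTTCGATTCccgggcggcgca
TRH-GTG1-3, chr1:148281365-148281436, and TRH-GTG1-9, chr15:45201151-45201222, plus strand: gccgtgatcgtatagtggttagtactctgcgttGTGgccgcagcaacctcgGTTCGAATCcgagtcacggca
TRN-GTT4-1, chr1:16889677-16889750, plus strand: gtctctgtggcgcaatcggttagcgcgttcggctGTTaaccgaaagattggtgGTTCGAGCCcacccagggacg
TRN-GTT6-1, chr1:143735920-143735993, minus strand: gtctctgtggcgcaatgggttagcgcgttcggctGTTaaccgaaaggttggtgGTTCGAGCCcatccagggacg
TRF-GAA1-5, chr13:94549650-94549722, minus strand: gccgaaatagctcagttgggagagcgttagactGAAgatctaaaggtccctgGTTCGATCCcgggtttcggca
TRL-AAG2-2, chr6:28943622-28943703, minus strand: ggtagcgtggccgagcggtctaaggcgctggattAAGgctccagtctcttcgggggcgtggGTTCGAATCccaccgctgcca

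All 14 genes held the core GTTCNANNC and their anticodon in 1 orientation, from which the strand was taken. Searched on both strands, the core was in 7.48% of all 35116 RefSeq promoter windows of 300 bp, so its letters alone do not mark a tRNA gene. Of the 14 genes, 11 had a peak in all 8 lists, beside 276 of all 439 loci (62.9%). The 14 could be read only because they lie in promoter windows of other genes, so they do not stand for all loci.

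The copies TRH-GTG1-3 and TRH-GTG1-9 are identical over 72 bases, but their peaks stood at different heights. Peak height is the deposited pileup, a measure of the fragments stacked at the peak. Its values are not whole numbers, so it is not a plain count, and its scaling is not given. Height is stated here as a percentile rank within the library's own list, where 100 is the tallest. TRH-GTG1-9, which lies 35 bp from an end of the gene SHF, had percentiles of 99.1 to 99.8 in the 8 lists. TRH-GTG1-3 had 73.2 to 91.6 in 7 lists and no peak in 3MB-PP1 replicate 4. TRN-GTT4-1 and TRN-GTT6-1 differ at C17G, A47G and C65T, counted from the 5′ end with the base of TRN-GTT4-1 first. TRN-GTT4-1 had a peak in all 8 lists, at percentiles of 35.2 to 76.7, and TRN-GTT6-1 in DMSO replicate 4 only, at 55.9. How the authors treated reads that match several copies is not given in the sources used here, so the signal of near-identical copies is uncertain.

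The tRNA loci held many of the tallest peaks of every list. Of the 10 peaks with the highest pileup, 9, 9, 9 and 8 touched a tRNA window in the 4 DMSO lists and 9, 8, 7 and 8 in the 4 3MB-PP1 lists. Among the top 100 peaks the number was 30 to 32 per list, although peaks at tRNA loci made up only 0.101% to 0.166% of each list. The median percentile of the best peak of a locus was 98.5 to 99.1, and 43.9% to 53.5% of loci with a peak were in the top 1% of their list. Median fold enrichment, as the authors' files give it, was 4.00 to 4.53 at tRNA loci and 2.52 to 2.88 over all peaks of the same lists.

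The 10 loci of highest mean percentile share 5 peaks. TRK-CTT2-3 (chr5:181221979-181222051) and TRV-CAC1-5 (chr5:181222395-181222467), a lysine and a valine gene, share a peak that ranked 2 in all 8 lists. Its length was 2352, 2227, 2224 and 2194 bp in DMSO replicates 1 to 4 and 2384, 2231, 2378 and 2188 bp in 3MB-PP1 replicates 1 to 4, so the groups overlap. TRA-TGC4-1 and TRD-GTC2-10 on chromosome 12, an alanine and an aspartate gene, share a peak of rank 3 in 7 lists and rank 4 in 3MB-PP1 replicate 1. TRV-AAC1-4 (chr5:181218270-181218342), a valine gene, was at rank 4 in 7 lists and at rank 3 in 3MB-PP1 replicate 1. On chromosome 17, 4 neighbours within 8186358 to 8187666 (TRW-CCA3-3, TRS-GCT4-3, TRT-AGT1-1 and TRI-AAT5-5) share a peak of rank 5 to 7 that was 2387 to 2707 bp long. TRL-AAG2-4 (chr16:22297140-22297221), a leucine gene, was at ranks 6 to 9 and lies 188 bp from an end of POLR3E, which encodes a subunit of RNA polymerase III.

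A peak was present at 312, 303, 312 and 305 of the 439 loci in DMSO replicates 1 to 4 and at 317, 302, 312 and 289 in 3MB-PP1 replicates 1 to 4. The lowest count was in 3MB-PP1 replicate 4 and the highest in 3MB-PP1 replicate 1, and the groups overlap. These counts are 65.8% to 72.2% of the loci. The same windows moved by 100 kb in either direction (836 windows that touch no tRNA window) had a peak in 8.85% to 16.7% of cases. Windows around protein-coding gene ends, with the start and the end of each gene counted apart, had one in 37.5% to 43.1%. The share at tRNA loci was thus 4.24 to 7.44 times the share at moved windows of the same library.

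**Figure D1:**
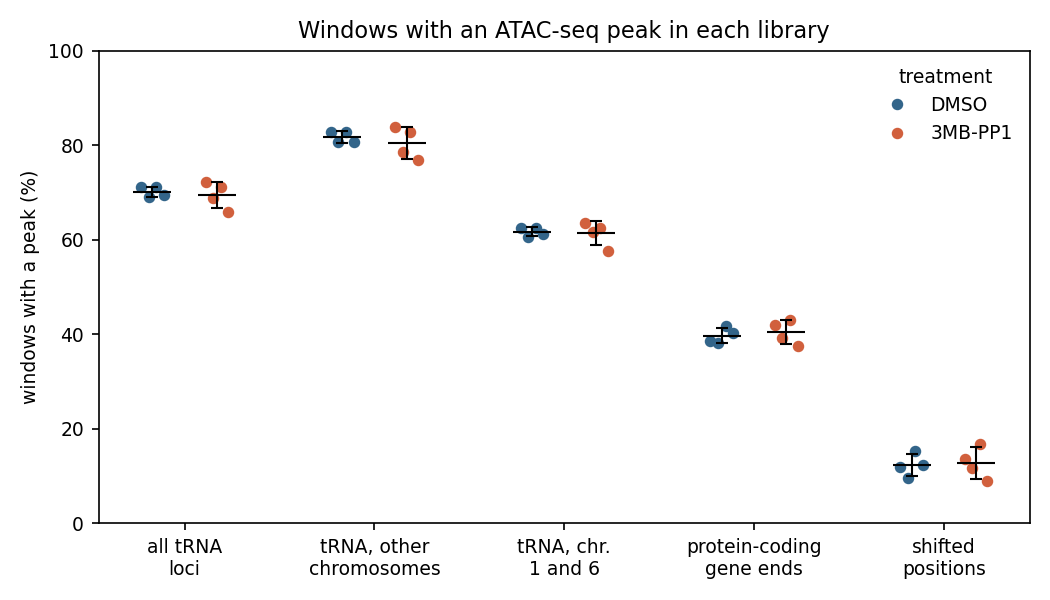
Share of windows with a peak, in percent, at all tRNA loci, at tRNA loci of the other autosomes and of chromosomes 1 and 6, at protein-coding gene ends and at tRNA windows moved (shifted) by 100 kb; points are the 4 libraries of each group, and bars the mean ± SD. In all 8 libraries the loci of the other autosomes (76.9% to 83.9%) lie above those of chromosomes 1 and 6 (57.7% to 63.6%), and both lie above gene ends and moved windows.

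Calls at single loci were mostly the same in all libraries. A peak was present in all 8 lists at 276 of 439 loci (62.9%), in none at 97 (22.1%) and in 1 to 7 lists at 66. For comparison, 29% of 38244 protein-coding gene ends were called in every list and 42.6% never, with the start and the end of each gene counted apart. Counted by gene, 56.6% of 19122 protein-coding genes had a peak at either end in all 8 lists, closer to the tRNA share. Of the moved windows, 2.99% were called in every list and 67.5% never. Of 583075 merged regions, each covered by a peak in at least 1 list, 6.2% had a peak in all 8. The absence of a call does not show closed chromatin, since depth and mappability at these loci are unknown.

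Peak coverage was highest over the genes themselves. The centre of the gene was covered by a peak at 65.8% ± 2.81 of loci in the DMSO group and 64.1% ± 3.58 in the 3MB-PP1 group (SD, n = 4 libraries each), against 4.19% and 3.62% at the centre of moved windows. At 1000 bp on either side coverage was 15.8% to 16.7% in both groups. Among loci with a peak, the best peak overlapped the gene itself at 92.1% to 97.8% and contained the whole gene at 82.8% to 94.6%.

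**Figure D2:**
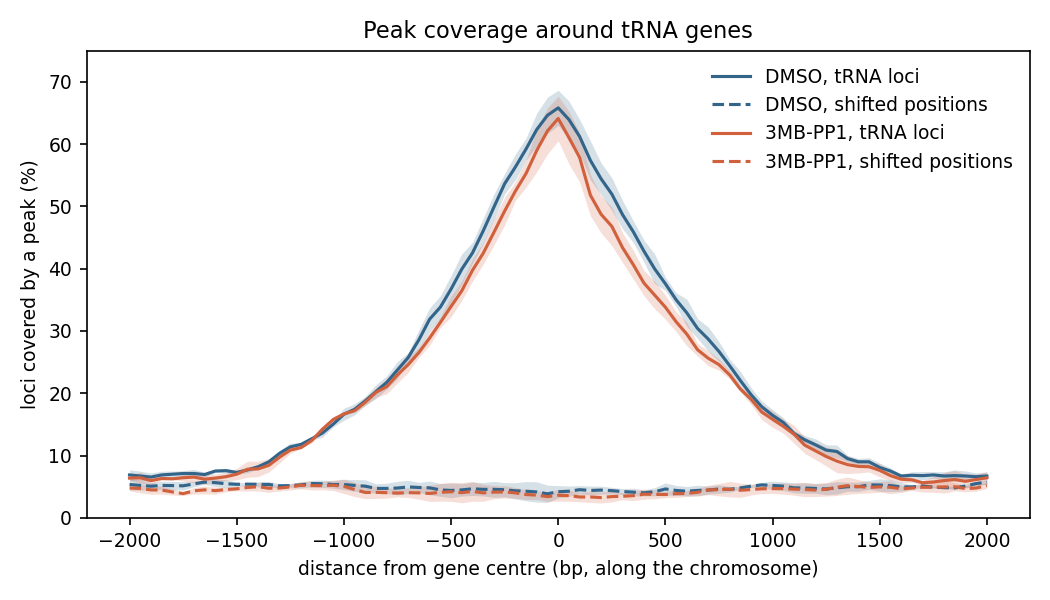
Share of windows covered by a peak, in percent, against the distance in bp from the gene centre, for tRNA loci and for windows moved by 100 kb, as the mean of 4 libraries per group with ± 1 SD shaded. Coverage is highest at the centre (65.8% in DMSO, 64.1% in 3MB-PP1) and is down to about 16% at 1000 bp on either side.

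Nearly every anticodon was represented. Of 48 anticodon families 47 had at least 1 locus with a peak in all 8 lists, and the exception was the single locus of tyrosine ATA, which had none. In 8 families every locus had a peak in all 8 lists: alanine TGC (8 loci), initiator methionine CAT (8), threonine TGT (6), leucine TAA (4), leucine TAG (3), arginine CCG (4), arginine CCT (4) and serine TGA (4). The largest families were more divided. Alanine AGC had 11 of 25 loci called in every list and 13 never called, and asparagine GTT 11 of 26 in every list and 11 never. Cysteine GCA, with 29 loci the largest, had 9 in all 8 lists, 14 in 1 to 7 and 6 in none.

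The 2 methionine tRNAs differed. The initiator, which starts every protein chain, had a peak in all 8 lists at 8 of 8 loci, and the elongator, which serves internal methionine codons, at 6 of 11, with the other 5 in no list. For selenocysteine, which is inserted at recoded stop codons, TRU-TCA1-1 (chr19:45478601-45478687) had a peak in all 8 lists at a mean percentile of 96.7. TRU-TCA2-1 (chr22:44150657-44150740), which lies inside the gene PARVB, had a peak in DMSO replicate 4 only, at 78.5.

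**Figure D3:**
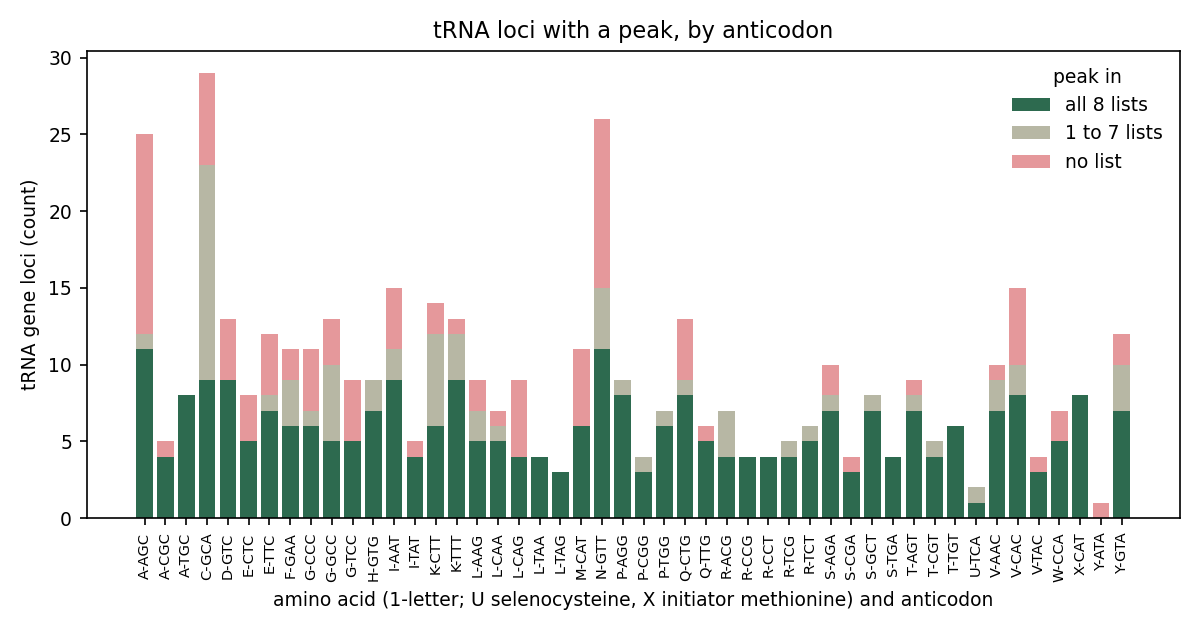
Number of tRNA loci in each of the 48 anticodon families, split into loci with a peak in all 8 lists, in 1 to 7 lists and in no list. Families such as A-TGC (8 of 8 in all lists) and X-CAT, the initiator methionine (8 of 8), stand beside divided ones such as A-AGC (11 of 25) and C-GCA (9 of 29).

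Loci on chromosomes 1 and 6, which hold the largest tRNA clusters, had a peak less often than the rest in all 8 libraries. The share was 61.7% ± 0.968 against 81.7% ± 1.24 in the DMSO group and 61.4% ± 2.57 against 80.5% ± 3.35 in the 3MB-PP1 group (SD, n = 4 libraries each). Every list held a peak at 140 of 253 loci (55.3%) on chromosomes 1 and 6 and at 136 of 186 (73.1%) on the rest, and 81 (32.0%) and 16 (8.60%) were never called. The 2 chromosomes were unlike: chromosome 1 had 40 of 98 loci (40.8%) in all 8 lists and 44 in none. Chromosome 6 had 100 of 155 (64.5%) and 37. The rest also varied, with 5 of 22 (22.7%) in all 8 lists on chromosome 7, 15 of 26 (57.7%) on chromosome 16 and 30 of 33 (90.9%) on chromosome 17. Median percentiles were 96.2 to 98.0 on chromosomes 1 and 6 and 99.5 to 99.7 on the rest, with no overlap. Loci are not replicates, so the 2 sets of chromosomes are described without a test across loci.

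The 2 sets of chromosomes also differ in how many loci lie near protein-coding genes, and the part of this in the difference was not tested. Of the 55 loci within 1 kb of a protein-coding gene end, 53 (96.4%) had a peak in all 8 lists, against 223 of 384 (58.1%) farther away. Only 8 of the near loci are on chromosomes 1 and 6, and 47 are on the rest. Among the farther loci alone, 133 of 245 (54.3%) on chromosomes 1 and 6 and 90 of 139 (64.7%) on the rest had a peak in all 8 lists.

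Within a chromosome, neighbouring clusters went different ways. With loci joined into runs at gaps of up to 50 kb, all 13 loci of a run at chr5:181164154-181222467 and all 18 of a run at chr17:8119155-8227064 had a peak in all 8 lists. On chromosome 6, a run at 26521208 to 26594962 had 12 of 13 loci in all 8 lists. The next run, at 26673362 to 26828299, holds alanine AGC, isoleucine AAT and methionine CAT genes and had 2 of 18 in all 8 and 16 in none. A run of the same 3 families at 57800211 to 57856473 had 0 of 6 in all 8 and 5 in none. The largest run of the chromosome, at 28474552 to 28989083, had 33 of 43 in all 8. On chromosome 1, a run of 31 loci at 161399700 to 161540314, made of 8 families, had 9 in all 8 lists and 18 in none. A run on chromosome 7 at 149546540 to 149707740, of cysteine GCA and serine AGA genes, had 1 of 13 in all 8 and 4 in none.

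**Figure D4:**
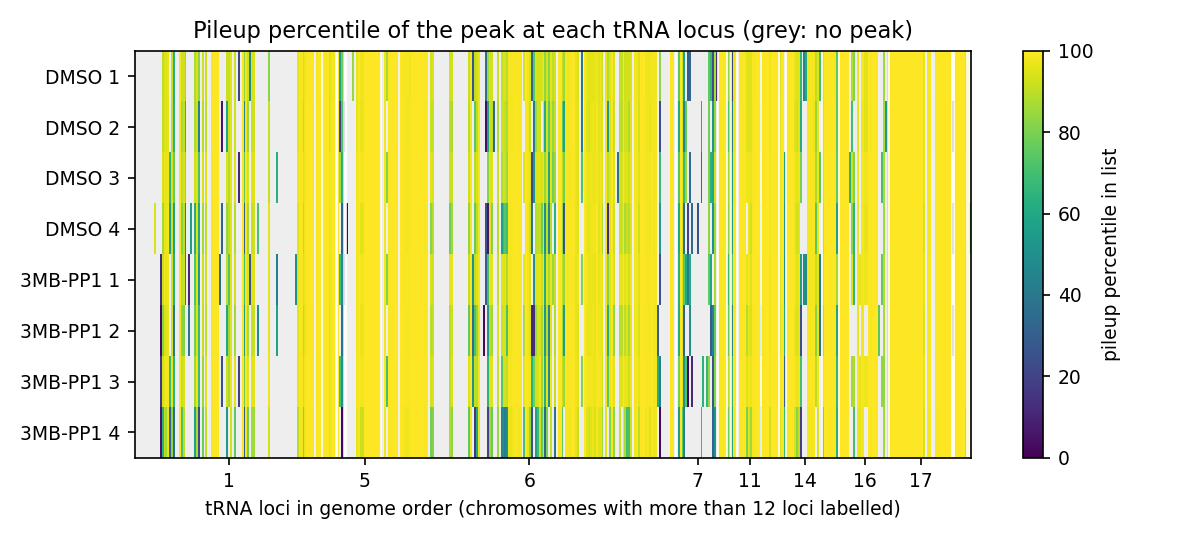
Pileup percentile (colour) of the best peak at each of the 439 tRNA loci, in genome order along the horizontal axis, in each of the 8 lists (rows); grey is no peak, white lines part the chromosomes, and chromosomes with more than 12 loci are labelled. Grey stretches cross all 8 rows, as on chromosomes 1 and 6, and the runs on chromosomes 5 (13 loci) and 17 (18 loci) are filled in every row.

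The isodecoder number of the name also went with the calls. Sequences numbered 1 had a peak in all 8 lists at 80 of 112 loci (71.4%), those numbered 2 or 3 at 125 of 158 (79.1%), those numbered 4 to 6 at 58 of 91 (63.7%), and those numbered 7 or more at 12 of 58 (20.7%). Of 20 loci whose symbols carry no such number, 14 on chromosome 1 and 6 on chromosome 6, only 1 had a peak in all 8 lists and 18 had none. The isodecoder numbers come from the naming scheme and are not a readout of the study. They are also spread unevenly over the chromosomes. On chromosomes 1 and 6 and on the rest, shares in all 8 lists were 63.3% and 80.8% for number 1 and 71.25% and 87.2% for 2 or 3. They were 63.3% and 64.5% for 4 to 6 and 18.2% and 24% for 7 or more. The part of the numbers in the difference between the 2 sets was not tested. Among the 97 loci with no peak in any list, the first 3 in genome order are TRN-GTT26-1 and the first copies of TRNAE-UUC and TRNAG-CCC on chromosome 1.

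Copies under 1 name were often called alike, but not always. Of 55 names with at least 2 copies, 25 had every copy in all 8 lists and 6 had no copy in any list. In 12 names, copies in all 8 lists stood beside copies in none. Loci with such copies had a peak in all 8 lists at 154 of 217 (71.0%), and loci that are the only bearer of their numbered name at 121 of 202 (59.9%).

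Whether Plk1 inhibition changed the number of accessible tRNA loci was tested over libraries. The mean was 308 ± 4.69 loci in the DMSO group and 305 ± 12.4 in the 3MB-PP1 group (SD, n = 4 each), a difference of -3 loci that did not exceed the spread (two-sided exact permutation p = 0.714, adjusted p = 0.714 over 8 tRNA measures). Other windows and peak limits gave from 0 with windows of 1000 bp to -18.5 loci with a limit of 5 on −log10 q (exact permutation p = 0.229). The smallest p this design allows is 0.0286, and an adjusted p under 0.05 would need 5 of the 8 measures to reach it together. Relative to the moved windows, the excess was 57.9 ± 1.73 percentage points in DMSO and 56.7 ± 1.77 in 3MB-PP1 (difference -1.13, exact permutation p = 0.4, adjusted p = 0.533). It was lower in 4 of 4 same-numbered pairs, which gives the smallest p that 4 pairs allow (exact permutation p = 0.125 with the replicate block). The size depended on the setting: it was -3.33 with windows moved by 20 kb (exact permutation p = 0.0286, adjusted p = 0.0762), -3.62 with the q limit (exact permutation p = 0.2) and -0.132 with lists of equal length (exact permutation p = 0.943). Since libraries with odd and even replicate numbers differed, both are given: the difference in loci was 2.5 in odd and -8.5 in even replicates.

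No tRNA locus had a peak in all 4 DMSO lists and none of the 3MB-PP1 lists, a pattern seen at 0.12% of merged regions and 0.0784% of protein-coding gene ends. The opposite pattern was seen at 1 locus, beside 0.149% of merged regions and 0.0523% of gene ends. It was TRN-GTT5-1 (chr1:16520585-16520658), an asparagine gene, whose peaks of 224, 370, 554 and 344 bp stood at percentiles of 2.24 to 15.5, among the lowest of their lists. The pattern was lost with the q limit, with lists of equal length and with the gene body alone, where this gene had a peak in 0, 1 and 1 lists. TRF-GAA1-5, the phenylalanine gene printed above, had a peak in 2 DMSO and 4 3MB-PP1 lists.

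Peaks at tRNA loci were shorter after 3MB-PP1. Their median length was 1272.5, 1244, 1311 and 1177 bp in DMSO replicates 1 to 4 and 1109, 1121, 1122.5 and 1132 bp in 3MB-PP1 replicates 1 to 4. All 4 DMSO libraries lie above all 4 3MB-PP1 libraries. The means were 1251 ± 56.5 and 1121 ± 9.44 bp (SD, n = 4 each), a difference of -130 bp (-10.4%) with the smallest p the design allows (two-sided exact permutation p = 0.0286), which did not pass adjustment over the 8 measures (adjusted p = 0.114). Odd replicate numbers alone gave -176 bp and even ones -84 bp. The sign was negative in 4 of 4 same-numbered pairs, which adds nothing, since without overlap any pairing gives this.

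Over all peaks of the lists the median was 25.3% lower, a larger drop in percent than at tRNA loci. The median tRNA peak was 3.21 ± 0.0839 times the list median in DMSO and 3.87 ± 0.294 times in 3MB-PP1 (difference 0.657, exact permutation p = 0.0286, adjusted p = 0.114; odd 0.936, even 0.377). The difference shrank to 0.119 with the q limit and to 0.247 with a common smallest peak width of 135 bp (exact permutation p = 0.0286 in both). Among features with a peak in all 8 lists, median length fell by 8.74% at tRNA loci, 15.2% at protein-coding gene ends and 26.8% over merged regions, each with groups that do not overlap. Height bears on this comparison: over all peaks of the top 1% by pileup, where 43.9% to 53.5% of loci with a peak also lie, median length was 1568 ± 44.7 bp in DMSO and 1364 ± 15.7 bp in 3MB-PP1, 13.0% lower. Further ratios were added after seeing the data, over loci with a peak in all 8 lists: against merged regions the ratio rose by 0.312 (exact permutation p = 0.0286, not adjusted) and against gene ends it differed by 0.0675 (exact permutation p = 0.0571). Over all loci with a peak, the answer changed with the height of the peaks compared. Against the top 10% of peaks, which were 38.6% shorter after 3MB-PP1 and hold 75.4% to 85.9% of these loci, the ratio rose by 0.441 (exact permutation p = 0.0286, not adjusted). Against the top 1% it differed by 0.0243 (exact permutation p = 0.171).

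**Figure D5:**
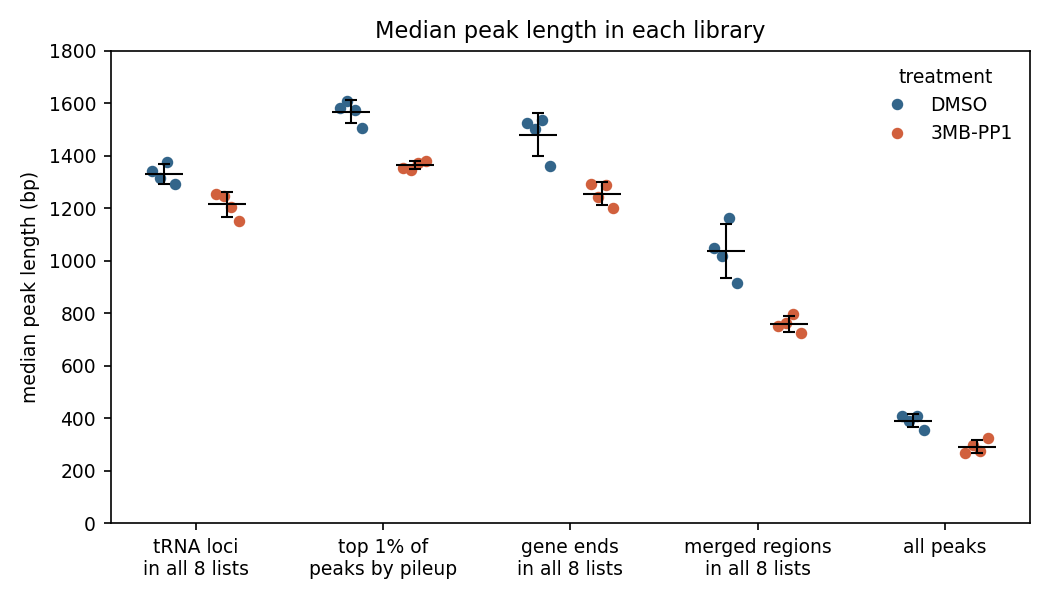
Median peak length in bp in each library for tRNA loci with a peak in all 8 lists, for the top 1% of peaks by pileup, for protein-coding gene ends and merged regions with a peak in all 8 lists, and for all peaks; points are libraries and bars the mean ± SD of 4. In each of the 5 sets all 4 3MB-PP1 libraries lie below all 4 DMSO libraries, by 8.74% in the mean for tRNA loci and 26.8% for merged regions.

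On chromosomes 1 and 6 the median length was 1032, 1044, 1060 and 942 bp in DMSO and 824, 808, 935.5 and 834.5 bp in 3MB-PP1, with no overlap (difference -169 bp, exact permutation p = 0.0286, not adjusted). On the rest it was 1480, 1444.5, 1515 and 1344 bp in DMSO and 1344.5, 1396, 1326 and 1393 bp in 3MB-PP1, where the groups overlap (difference -81 bp, exact permutation p = 0.143, not adjusted). The difference between these 2 changes was -88 bp, with groups that overlap (exact permutation p = 0.143, adjusted p = 0.381). It was -4 bp in odd and -172 bp in even replicates. The groups did not overlap over loci with a peak in all 8 lists (-61.9 bp, exact permutation p = 0.0286, adjusted p = 0.114) or when the peak had to cover at least 50% of the gene (-69.4 bp, exact permutation p = 0.0286, adjusted p = 0.0762). The gap in shares between the 2 sets of chromosomes was not shown to shift (0.913 percentage points, exact permutation p = 0.343, adjusted p = 0.533).

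Height ranks were not shown to differ between the groups in the lists as deposited, although the pileup itself was lower after 3MB-PP1. Its median at tRNA loci was 54.2 to 93.3 in the DMSO lists and 37.0 to 49.2 in the 3MB-PP1 lists. Over all peaks of the lists it was 11.3 to 13.4 and 9.71 to 11.1. Read depth and the scaling of the pileup are unknown, and the cause of the lower pileup was not tested. The median percentile was 98.7 ± 0.230 in DMSO and 98.9 ± 0.180 in 3MB-PP1 (difference 0.188, exact permutation p = 0.2, adjusted p = 0.4; SD, n = 4 each). With the q limit the direction turned, to -3.77 with groups that do not overlap (exact permutation p = 0.0286, adjusted p = 0.114). The gap in percentile between chromosomes 1 and 6 and the rest changed by 0.280 (exact permutation p = 0.514, adjusted p = 0.588), by 0.777 in odd and -0.218 in even replicates, and by -5.33 with the q limit (exact permutation p = 0.257).

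At single loci, lengths moved mostly one way. Among the 276 loci with a peak in all 8 lists, every DMSO peak was longer than every 3MB-PP1 peak at 25 loci (9.06%), which share 23 peaks, against 11.4% of merged regions and 14.1% of gene ends. The reverse was seen at 2 loci that share 1 peak, against 0.335% of merged regions and 0.0992% of gene ends. The share of shortened tRNA loci was therefore not above the background. No single locus can pass a correction in this design, so the loci named next are described without a test.

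The largest shortening among the 25 was at TRY-GTA6-1 (chr6:26594874-26594962), a tyrosine gene, with 2536, 1336, 1313 and 1270 bp in DMSO and 248, 314, 338 and 240 bp in 3MB-PP1. TRX-CAT1-6 (chr6:27592821-27592892), an initiator methionine gene, had 1523, 1890, 1712 and 1510 bp in DMSO and 390, 1289, 392 and 417 bp in 3MB-PP1. The neighbouring lysine gene TRK-TTT4-1 (chr6:27591814-27591886) shares the DMSO peak of TRX-CAT1-6, and had 463, 1289, 648 and 321 bp in 3MB-PP1. In 3 of the 4 3MB-PP1 lists these neighbours thus had separate short peaks where every DMSO list had 1 long peak over both. TRL-AAG2-2, the leucine gene printed above and chosen for its sequence after its values were seen, had 1256, 1376, 1377 and 1435 bp in DMSO and 435, 380, 423 and 318 bp in 3MB-PP1, while its percentiles stayed at 97.3 to 99.1. The 2 loci with the reverse pattern, TRX-CAT1-7 and TRG-GCC2-3, lie within chr6:27902493-27902978 and share a peak of 1375, 1054, 1394 and 1355 bp in DMSO and 1724, 1624, 1431 and 1401 bp in 3MB-PP1.

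Percentiles were higher in every DMSO list than in every 3MB-PP1 list at 17 of the 276 loci (6.16%), which share 7 peaks, against 2.56% of merged regions and 1.48% of gene ends. The reverse was seen at 1 locus, against 2.86% and 3.78%. Loci that share a peak are each counted here, whereas a merged region counts once, so these shares are not like for like. Each list held 229 to 257 distinct peaks at tRNA loci, fewer than its loci with a peak. The counts of loci moved with the processing, and the merged regions moved with them. Distinct peaks were not counted under the other settings. With the q limit, 54 of 216 loci (25%) were higher in DMSO, beside 17% of merged regions, and 0 in 3MB-PP1, beside 0.386%. With lists cut to equal length it was 44 of 274 loci (16.1%), beside 8.18%, and 0, beside 1.86%. With the common smallest width it was 35 of 274 (12.8%), beside 4.36%, and 1, beside 1.82%. The differences were small: in the lists as deposited, group means at the 17 loci differed by -0.397 to -0.00231 percentile points, with a median of -0.0148. The largest drop, of -0.397 points, was at TRE-CTC1-1 (chr1:146035692-146035763), a glutamate gene. It went from ranks 969, 1050, 1335 and 1345 in DMSO to 1707, 2531, 1889 and 2468 in 3MB-PP1. The cysteine genes TRC-GCA2-3 and TRC-GCA2-4, within chr17:39153734-39154562, share a peak at ranks 241, 332, 411 and 327 in DMSO and 520, 588, 598 and 818 in 3MB-PP1. The 1 locus with higher percentiles in 3MB-PP1 was the threonine gene TRT-AGT1-3 (chr19:33177057-33177130), by 0.00270 points between group means. Its ranks were 12, 13, 13 and 11 in DMSO and 8, 9, 11 and 8 in 3MB-PP1. They overlap at 11, so the groups part only after division by list length. List length differed between libraries, and the percentile divides by it. At a fixed rank from the top the percentile is thus higher in a longer list, so it is not free of list length.

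The genes of the RNA polymerase III pathway were also accessible in both groups. A peak at either gene end was present in all 8 lists at 64 of 70 genes, against 56.6% of 19122 protein-coding genes. The median percentile over these 64 was 97.4, against 96.3 over the 10818 protein-coding genes called in all 8 lists. No gene of the pathway had a peak in 4 lists of 1 group and none of the other. The polymerase subunits had 12 of 13, TFIIIB 4 of 4, TFIIIC 5 of 6, TFIIIA 1 of 1 and SNAPc, which serves the U6-type promoters, 5 of 5. MAF1, the repressor of RNA polymerase III, stood at a percentile of 99.4. The subunit POLR3A, part of the catalytic core, had a peak in 2 DMSO and 2 3MB-PP1 lists, and GTF3C3 of TFIIIC in 4 and 3.

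Most genes of other RNAs made by this polymerase also had a peak in every list. The count was 17 of 20, beside 56.6% of protein-coding genes, scored like these by a peak at either end. It included RMRP (percentile 99.9), RN7SL1 of the signal recognition particle (99.6), RPPH1, the RNA of RNase P, which trims tRNA 5′ ends (99.2), and RN7SK (97.2). RNU6ATAC had a peak in 4 DMSO lists and 1 3MB-PP1 list. Of 20 genes that process or modify tRNA in the list, 19 had a peak in all 8 lists, beside the 56.6% of protein-coding genes. Lengths were greater in every DMSO list than in every 3MB-PP1 list at 10 genes of the pathway, among them TBP (means 2415 and 1790 bp), POLR3GL (2195 and 1297 bp) and RNU6-1 (1848 and 969 bp), and the reverse was seen at 0. That is 10 of the 64 with a peak in all 8 lists, beside 13.7% of protein-coding genes, for which the reverse share was 0.102%.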

How the data were processed

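ATAC-seq was measured in 8 libraries, 4 per group, and the authors deposited 1 peak list per library. Per the submitters' processing notes, MACS2 and the build hg38 were used; the notes give no version, and aligner, filters, Tn5 offset and control are not given in the sources used here. The deposited columns were peak length, pileup (a signal), −log10 p-value, fold enrichment (a ratio) and −log10 q-value. No q-value above 0.1 was listed. Depth is unknown.

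Peaks on chromosomes 1 to 22 were intersected with the windows (at least 1 bp; bedtools 2.31.1 gave the same counts). Per locus the peak of highest pileup was kept. Computation used scipy 1.17.1, pandas 2.3.3 and numpy 2.4.6 under Python 3.11.15, and drawing matplotlib 3.10.9. Group means were compared by two-sided exact permutation over 70 assignments, with Benjamini-Hochberg adjustment over 8 measures, checked on simulated data.

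Replicate numbers are shared between the groups. Same-numbered libraries deviated together (correlations of 0.316, 0.111, 0.108 and 0.339 over 36170 merged regions with a peak in all 8 lists), so the numbers were taken to pair them, although libraries of different number reached 0.145 (range -0.330 to 0.145) and the pairing of replicates 2 and 3 does not stand out. With 4 pairs the smallest p is 0.125, so no measure could pass with the replicate block, and it says nothing about stability. Libraries of odd and of even number are given apart because deviations at tRNA loci were alike within odd numbers (0.485 to 0.727). Within even numbers they were less alike (-0.163 to 0.696). At these loci the same-numbered 3MB-PP1 library was the closest for DMSO replicates 2 and 4 but not for 1 and 3. DMSO replicate 3 correlated at 0.727 with 3MB-PP1 replicate 1 and at 0.680 with 3MB-PP1 replicate 3.

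Named loci were the 10 of highest mean percentile, up to 5 per direction called in 1 group only, the 3 largest non-overlapping differences per direction, initiator methionine and selenocysteine loci, and the first 3 without a peak. The loci, the RNA polymerase III list and the marker lists were chosen with earlier results of these data known. Of the blood, liver and neuron markers, CD3E had a peak in 6 lists and APOA1 in 2; of the epithelium genes OTX2 in 6, BEST1 in 2 and TYR in 1. Some single-gene values are not reported here.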

Additional observations from a re-analysis of the deposited data

How the results depend on the processing

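The number of tRNA loci with a peak differed by 2.5 in odd-numbered replicates, against -3 in all, and by -7 to 2.33 when 1 library was left out. Median length stayed lower in 3MB-PP1 in every alternative run, from -176 bp in odd-numbered replicates to -45.4 bp with a −log10 q limit of 5 (exact permutation p = 0.114). Leaving out 1 library gave -155 to -110 bp for length, 0.572 to 0.782 for length relative to the list, -1.83 to -0.328 percentage points for the excess over moved windows, 0.115 to 0.270 for percentile, 0.142 to 1.31 points for the share on chromosomes 1 and 6 minus the rest, -129 to -63.5 bp for that length and 0.0498 to 0.446 for that percentile. With the replicate block the length difference of -130 bp had p = 0.125, the smallest 4 pairs allow in an exact permutation.

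With the q limit of 5, the percentile difference became -3.77 (exact permutation p = 0.0286), the share on chromosomes 1 and 6 minus the rest -3.11 (exact permutation p = 0.114) and the same contrast of percentile -5.33 (exact permutation p = 0.257). That contrast was -0.0364 with lists of equal length and -0.218 in even replicates. Loci in no list rose to 158 with that q limit. Loci called only in 3MB-PP1 were 0 with it, with equal lists and with the gene body alone. Loci with percentile higher in every DMSO list were 54 with the q limit, 44 with equal lists and 35 with a common smallest width, and the reverse was 0 with the q limit and with equal lists. The causes were not tested. For named loci, the number of lists with a peak was recounted under 4 alternatives, and 113 of 124 such counts were unchanged.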

Other observations

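Among the 20 tallest peaks of each list, 15, 16, 14 and 16 touched a tRNA window in DMSO replicates 1 to 4 and 13, 13, 13 and 13 in 3MB-PP1 replicates 1 to 4. The difference of -2.25 had a two-sided exact permutation p of 0.0286, not adjusted, and this limit was 1 of 4 looked at after the data were seen. With the top 10, 100 and 1000 peaks the exact permutation p was 0.371, 0.257 and 0.143.

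The initiator methionine gene TRX-CAT1-4 had peaks of 1521, 1454, 1669 and 343 bp in DMSO and 343, 328, 285 and 180 bp in 3MB-PP1, so DMSO replicate 4 lies with the 3MB-PP1 libraries. The identical proline copies TRP-TGG3-2, 90 bp from an end of ANG, and TRP-TGG3-5, 39 bp from an end of OR1F1, both had a mean percentile of 98.6.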
